A study of Mus musculus with 2 samples.

Results

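The 40 genes described here take part in the immediate early response and in the feedback on mitogen-activated protein kinase (MAPK) signalling, and they were measured in mouse skin with mite-induced dermatitis, with and without recombinant ZAG. The genes were chosen by name: the members of the AP-1, EGR, NR4A, KLF, IER, dual-specificity phosphatase and Sprouty families that act first after a stimulus, with Myc, mRNA-decay factors and further early response genes. This choice was made with earlier results of these data known, so shares of members beside shares of all genes are descriptions only. Of the 40 genes, 39 had at least 1 probe annotated to that gene alone, out of 22180 genes measured in all. The remaining one, Fosl1, a Fos-family gene, was on a probe shared with another gene and is given no value.

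Both groups were female mice of the NC/Nga strain, which is inbred and develops dermatitis readily, brought in at 6 weeks of age and sampled at 13 weeks. All of them received Dermatophagoides farinae body extract as an ointment 2 times a week for 6 weeks. The ZAG group also had recombinant zinc-alpha-2-glycoprotein put on the skin on the same schedule, at 1 µg/mL by the design text, and the control group is labelled only as control, with no vehicle named. The table analysed holds 1 array of dorsal skin per group, although the design text counts 3 mice in each, and the sources used here do not say whether an array was 1 mouse or a pool. Skin without dermatitis was not analysed here, so each value below compares inflamed skin with inflamed skin.

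Immediate early genes are transcribed within minutes of a stimulus without new protein synthesis, when the kinases ERK, JNK and p38 or cAMP signalling activate factors already bound at their promoters, chiefly SRF with its ternary complex partners, and CREB. Many of the products are transcription factors that carry the signal on, while dual-specificity phosphatases and Sprouty proteins switch the kinases off again and ZFP36 proteins remove short-lived mRNAs. In epidermis AP-1, KLF4 and EGR factors also act in keratinocyte proliferation, differentiation and wound repair, and in leukocytes the same genes are induced by microbial products and cytokines.

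Most early response genes were lower in ZAG skin, but by unequal amounts and not in every branch. Of the 39 genes measured, 30 were lower in the ZAG array (76.9%, against 47.9% of all genes) and 9 higher, and the median log2 difference (ZAG minus control, with -1 meaning 2-fold lower) was -0.22, against 0.01 over all genes. Those at least 2-fold lower were 4 in number (10.3%): Nr4a1, Fos, Arc and Dusp1, in a background of 0.721% of all genes. With another 8, the count at 1.5-fold was 12 (30.8%, background 3.64%), and none was 1.5-fold higher (background 2.21%). The NR4A receptors were lower together, the Fos genes were lower by unequal amounts, and both Sprouty genes were lower. Jun genes, EGR genes and DUSP phosphatases were split, although the higher Jun and DUSP genes differed by less than the probe error described below. The same holds for 19 of the 39 genes in all, lower genes such as Fosb and Spry2 among them. With 1 array per group there is no replicate error and no test for any of these differences, so each describes 2 arrays.

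The promoters of the genes that the results turn on are shown first. Nr4a1, Fos and Dusp1, 3 of the 4 genes that differed most, had several cAMP response element cores there. Arc, the other of the 4, had no RefSeq promoter given and was not searched. Several cores were also found in members that differed little: Btg1 (-0.18), Btg2 (-0.21) and Plk3 (0.09) held 2 each. How many of all genes hold several cores was not counted. Each sequence is the 250 bases before the RefSeq transcription start on GRCm38.p6, read 5′ to 3′ on the strand of the gene. Capitals mark matches on either strand to the core of the cAMP response element (CRE, TGACG, or CGTCA on the other strand), the AP-1 element (TGANTCA), the EGR element (GCGNGGGCG) or the CArG box that SRF binds. Nr4a1, Fos and Dusp1 are the lowest members for which RefSeq promoters were given, Ier3 was lower and held no match, and Jun was higher and held none.
Nr4a1 (chr15:101266596-101266845, plus strand): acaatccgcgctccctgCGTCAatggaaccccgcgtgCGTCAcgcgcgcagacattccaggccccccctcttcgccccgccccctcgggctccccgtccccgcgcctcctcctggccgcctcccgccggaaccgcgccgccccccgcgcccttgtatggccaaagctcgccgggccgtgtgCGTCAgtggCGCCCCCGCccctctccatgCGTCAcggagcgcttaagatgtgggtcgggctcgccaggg
Fos (chr12:85473640-85473889, plus strand): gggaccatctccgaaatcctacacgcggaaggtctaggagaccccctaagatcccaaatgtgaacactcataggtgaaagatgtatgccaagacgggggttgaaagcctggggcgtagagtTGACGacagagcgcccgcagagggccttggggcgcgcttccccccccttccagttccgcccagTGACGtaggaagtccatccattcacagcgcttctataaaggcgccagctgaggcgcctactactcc
Dusp1 (chr17:26508473-26508722, minus strand): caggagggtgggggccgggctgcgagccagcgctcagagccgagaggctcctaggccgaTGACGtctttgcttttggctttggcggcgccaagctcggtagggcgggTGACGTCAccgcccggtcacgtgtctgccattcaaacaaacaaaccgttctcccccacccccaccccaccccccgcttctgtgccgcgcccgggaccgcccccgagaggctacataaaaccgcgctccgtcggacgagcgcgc
Ier3 (chr17:35821463-35821712, plus strand): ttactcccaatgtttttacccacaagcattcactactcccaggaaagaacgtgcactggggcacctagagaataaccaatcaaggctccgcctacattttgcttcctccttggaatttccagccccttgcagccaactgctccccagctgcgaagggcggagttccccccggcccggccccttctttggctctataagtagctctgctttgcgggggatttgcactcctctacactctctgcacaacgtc
Jun (chr4:95052223-95052472, minus strand): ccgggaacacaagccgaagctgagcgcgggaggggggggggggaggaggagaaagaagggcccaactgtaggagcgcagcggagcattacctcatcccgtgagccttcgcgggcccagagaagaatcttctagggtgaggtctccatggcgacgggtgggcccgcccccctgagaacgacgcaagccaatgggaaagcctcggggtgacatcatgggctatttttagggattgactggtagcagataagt

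The Nr4a1 window held 4 CRE cores and 1 EGR element, the Fos window 2 CRE cores, and the Dusp1 window 3 CRE cores. In Dusp1 a pair of those cores overlaps as the full palindrome TGACGTCA, 143 to 136 bases before the start. Windows were at hand for 30 of the 40 members (39 windows, since some genes have several starts). Arc, Dusp4, Egr1, Egr3, Fosl1, Ier2, Klf10, Myc, Phlda1 and Spry4 had none and were not searched. Elements more than 250 bases before a start were not searched either, so a missing match holds for the window alone. A gene was counted once if any of its windows matched. The CRE core was found in 17 of the 30 members (56.7%), in 28.5% of the 10648 genes at or above the background gauge described below, and in 19.8% of all 27025 genes with a window. The EGR element was found in 11 of the 30 members (36.7%), against 10% of genes at or above the gauge and 5.33% of all genes. The CArG box was found in 3 members (Dusp5, Egr2 and Zfp36), which is 10% against 1.48% of genes at or above the gauge and 1.62% of all. The AP-1 element was found in 2 members (Csrnp1 and Zfp36l1), or 6.67%, near the 6.26% of genes at or above the gauge and the 7.82% of all. The full palindrome was found in 3 members (Btg2, Dusp1 and Maff), or 10%, against 2.68% of genes at or above the gauge and 1.77% of all. The full palindrome contains the core on both strands, and no other motif searched contains it. Members were richer in G and C (median 64.8% of bases) than genes at or above the gauge (59.2%) or all genes (52.4%), which bears on any motif with CG in it.

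The CRE core was found in 7 of the 9 members at least 1.5-fold lower in ZAG skin that had a window, and in 10 of the 21 other members. These are counts of letters in a window and describe no binding. Within the lower set Nr4a1, Nr4a2 and Nr4a3 each held 4 cores, whereas Ier3 and Zfp36 held none. Among the 9 members that were higher in ZAG skin, 5 (Egr2, Plk3, Dusp5, Atf3 and Maff, the last by 0.01 and lower under median centring) also held the core, so the motif was not confined to lower members.

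**Figure D1:**
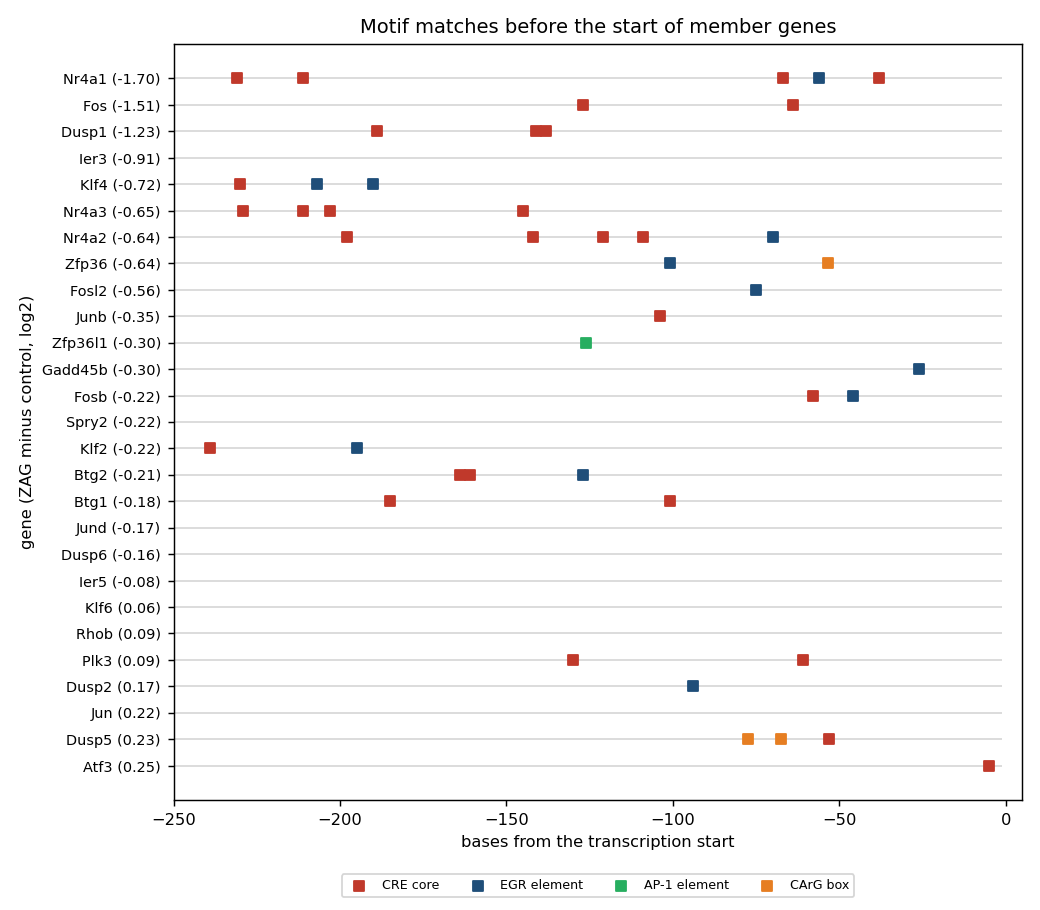
Motif matches in the 250 bases before the transcription start of the 27 members with a single window, ordered from the most negative log2 difference (ZAG minus control, in brackets) at the top. The horizontal axis is the distance from the start in bases, squares mark matches to the CRE core, EGR element, AP-1 element and CArG box, and 8 of the 27 genes have no match.

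The scale of these arrays sets how far the values can be read. Deposited log2 values ranged from 0.87 to 13.19 in the ZAG array and from 0.89 to 12.75 in the control array, and the array medians were 3.36 and 3.33. A background gauge was taken as the 95th percentile of the mean level of 1394 olfactory and vomeronasal receptor genes, which came to 3.16. All 39 members were above the gauge on both arrays, the nearest to it being Fosb, so every member's mean is above it on both sides, although 1 of the 2 Dusp6 probes is not. Probes of one gene differed in their log2 difference with an SD of 0.24 over 591 genes with several probes, which gauges probe error and not the spread between mice. The differences of 19 of the 39 members were smaller than this SD. So were those of 8301 of the 13596 genes measured at or above the gauge, and of 14210 of all 22180 genes. The label of dorsal skin was checked against markers, and all 9 keratinocyte markers measured and all 8 fibroblast markers were above the gauge.

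**Figure D2:**
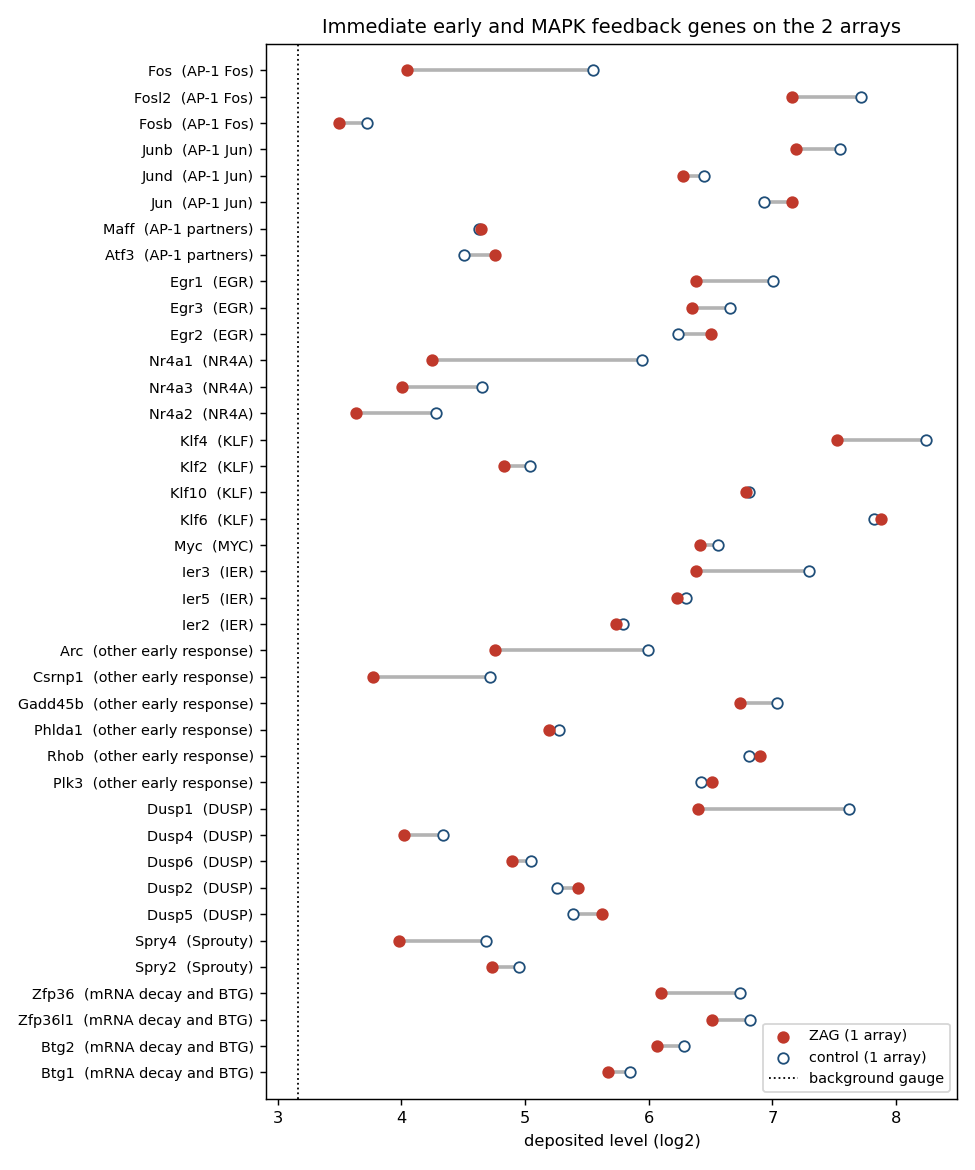
Deposited log2 level of each of the 39 members in the ZAG array (filled red) and the control array (open blue), joined by a grey bar, 1 array each. The dotted line is the background gauge at 3.16, and the longest bars are those of Nr4a1, Fos, Arc and Dusp1, with ZAG on the left of control.

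The same shares were taken over genes with a measurable level. At or above the gauge stood 13596 genes, which suit the members better since all of them are above it. In that set 1.02% were 2-fold lower in ZAG skin, 4.72% were 1.5-fold lower and 47.5% were lower by any size, against the 10.3%, 30.8% and 76.9% of the members. The share past 2-fold in the other direction was 0.257% in that set and 0.207% over all genes, and past 1.5-fold it was 2.51%, with no member among them. Without the 4 genes past 2-fold, the median of the other 35 members was -0.21 and 26 of them were lower.

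**Figure D3:**
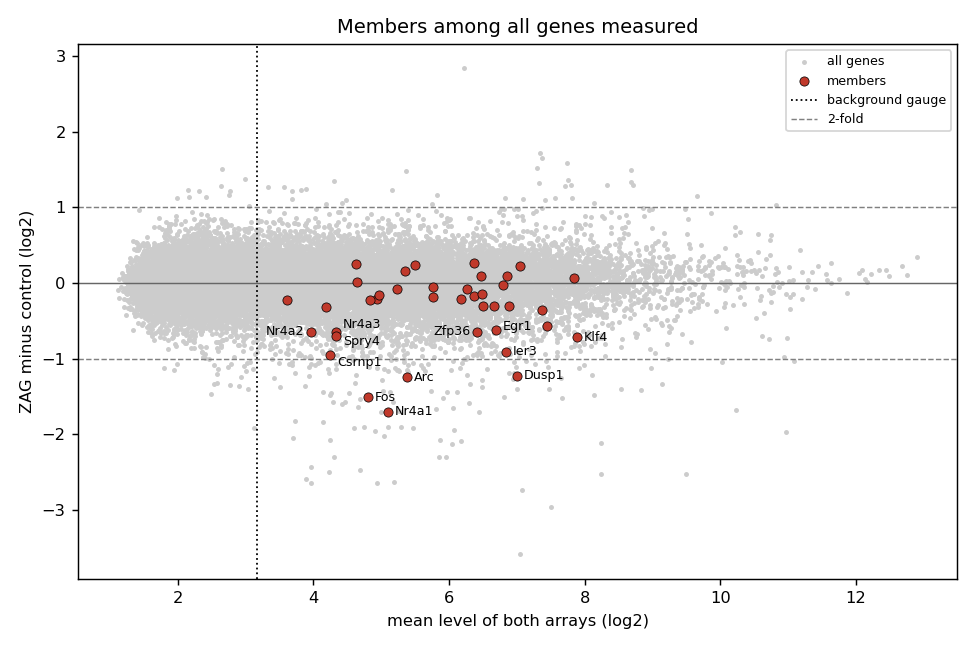
Log2 difference (ZAG minus control) against the mean log2 level of both arrays for all 22180 genes (grey) and the 39 members (red), 1 array per group. Dashed lines mark 2-fold and the dotted line the background gauge; the 12 members at least 1.5-fold lower are named, and no member reaches 1.5-fold higher.

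AP-1 is a dimer of Fos and Jun family proteins that binds the promoters of cytokine, protease and keratinocyte genes. Fos, the classic immediate early gene of the family, read 4.04 in ZAG skin and 5.55 in control skin, a log2 difference of -1.51 (2.85-fold lower). It ranked 49th from the lowest of the 13596 genes at or above the gauge. Fosb, which is induced with Fos, read 3.50 in ZAG skin and 3.72 in control skin, close to the gauge, and its difference of -0.22 was within the probe SD. Fosl2, the gene of Fra-2, which persists longer than Fos after a stimulus, read 7.16 in ZAG skin and 7.72 in control skin (-0.56). The 3 measured Fos genes were thus all lower, and the difference of Fos exceeded that of Fosb by 1.29 and that of Fosl2 by 0.95 on the log2 scale.

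The Jun genes did not follow Fos. Jun, the gene of the principal partner of Fos, read 7.16 in ZAG skin and 6.93 in control skin, 0.22 higher. Junb, a partner that restrains proliferation and inflammation in mouse epidermis, read 7.19 in ZAG skin and 7.55 in control skin (-0.35). Jund, the most constitutive of these genes, read 6.28 in ZAG skin and 6.45 in control skin (-0.17), with -0.24 and -0.10 on its 2 probes. The median was -0.17 for the Jun genes and -0.56 for the Fos genes, and no Jun gene was past 1.5-fold. Atf3, the gene of a stress-induced factor that dimerises with Jun and represses cytokine genes, read 4.75 in ZAG skin and 4.51 in control skin, 0.25 higher. Maff, the gene of a small Maf protein, read 4.64 in ZAG skin and 4.63 in control skin, which is no difference on this scale. The direction of Jun and Atf3 was opposite to that of Fos, at a size near that of the probe SD.

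NR4A genes encode the orphan nuclear receptors NUR77 (Nr4a1), NURR1 (Nr4a2) and NOR1 (Nr4a3), which act without a known hormone and are controlled mainly by how much is made. Nr4a1, which is induced by antigen receptors in lymphocytes and by inflammatory stimuli in macrophages, had the largest difference of all members. It read 4.25 in ZAG skin and 5.95 in control skin, a log2 difference of -1.70 (3.25-fold lower), ranking 35th from the lowest among genes at or above the gauge. Nr4a3 read 4.0 in ZAG skin and 4.65 in control skin (-0.65, 1.57-fold lower). Nr4a2 read 3.64 in ZAG skin and 4.28 in control skin (-0.64, 1.56-fold lower). The NR4A group was the only one among those with more than 1 gene in which every member was at least 1.5-fold lower, and its median was -0.65. The difference of Nr4a1 exceeded that of each of the others by 1.05.

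EGR genes encode zinc finger factors induced through SRF and its ERK-phosphorylated partners. Egr1, which acts in wound repair and in cytokine induction, read 6.38 in ZAG skin and 7.0 in control skin (-0.62, 1.54-fold lower). Egr3 read 6.35 in ZAG skin and 6.66 in control skin (-0.31). Egr2, which with Egr3 restrains T cell activation in mice and acts in myelinating Schwann cells, read 6.50 in ZAG skin and 6.23 in control skin, 0.27 higher, the highest difference among all members. The group was therefore split, with a median of -0.31 over a span from -0.62 to 0.27. Of the genes that work around the EGR factors, the corepressor genes Nab1 and Nab2 differed by -0.03 and 0.18, and the related Egr4 by 0.16.

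Among the KLF genes and Myc, only Klf4 differed by more than the probe SD. Klf4, the gene of a factor needed for the epidermal barrier in mice, read 7.52 in ZAG skin and 8.24 in control skin (-0.72, 1.65-fold lower). Klf2, known for the quiescence of endothelium and T cells, read 4.83 in ZAG skin and 5.04 in control skin (-0.22). Klf6 read 7.88 in ZAG skin and 7.82 in control skin (0.06), and Klf10, a TGF-beta-induced gene, read 6.79 in ZAG skin and 6.81 in control skin (-0.03). Only Klf4 of the 4 KLF genes was thus past 1.5-fold, and the other 3 were within the probe SD. Myc, the gene of the growth factor-induced transcription factor, read 6.42 in ZAG skin and 6.56 in control skin (-0.14), also within it.

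The IER genes and the remaining early response genes held both large and negligible differences. Ier3, the gene of a survival protein induced by NF-kB and ERK signals, read 6.38 in ZAG skin and 7.29 in control skin (-0.91, 1.88-fold lower). Ier2 read 5.74 in ZAG skin and 5.79 in control skin (-0.05), and Ier5 read 6.22 in ZAG skin and 6.30 in control skin (-0.08), so neither of the other IER genes followed Ier3. Arc, best known as a synaptic immediate early gene and also made in migrating skin dendritic cells of mice, read 4.76 in ZAG skin and 6.00 in control skin (-1.24, 2.37-fold lower). Csrnp1, the gene of a cysteine- and serine-rich nuclear protein, read 3.77 in ZAG skin and 4.72 in control skin (-0.95, 1.93-fold lower). Gadd45b, the gene of a stress sensor that activates p38 and JNK kinases, read 6.74 in ZAG skin and 7.03 in control skin (-0.30). The remaining 3 genes were within the probe SD: Phlda1, a feedback gene downstream of growth factor receptors, at -0.08, and Plk3, a stress kinase gene, and Rhob, each at 0.09.

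**Figure D4:**
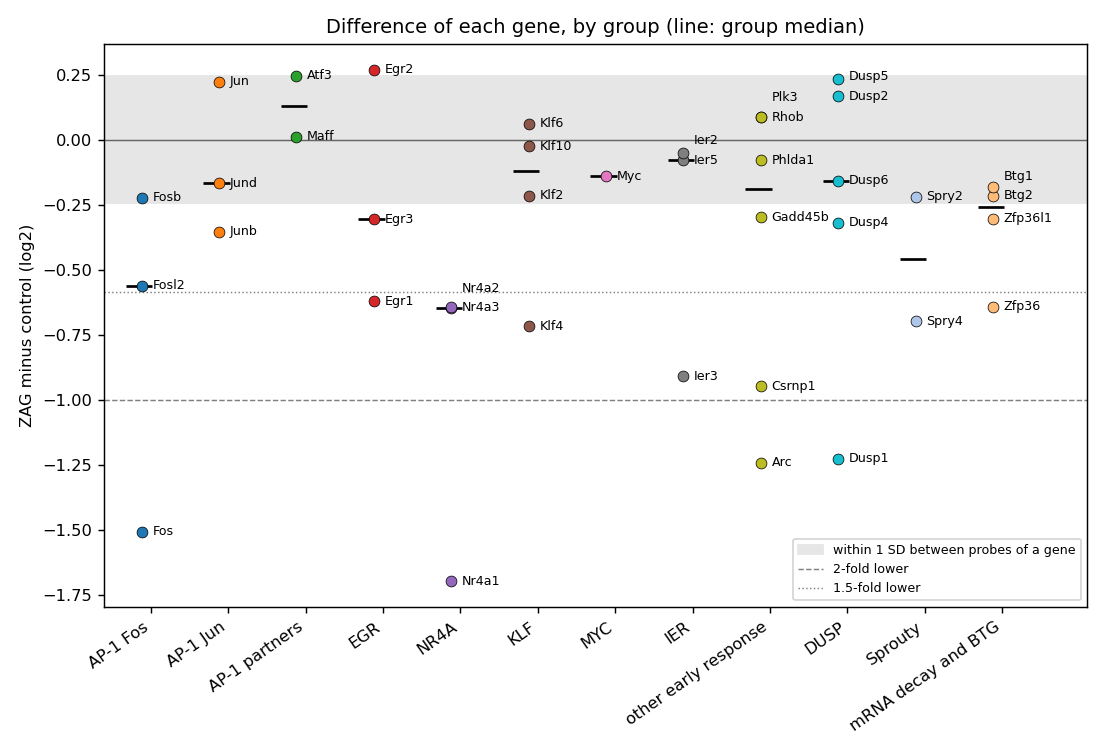
Log2 difference (ZAG minus control) of each of the 39 members by group, 1 array per group, with a black line at the group median. The grey band is within 1 SD between probes of a gene (0.24); the NR4A genes all lie below the 1.5-fold line, while the Jun, EGR and DUSP groups have genes on both sides of 0.

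Dual-specificity phosphatases (DUSPs) remove the phosphates that activate MAPKs. Dusp1, which is induced by stress, Toll-like receptor signals and glucocorticoids and acts mainly on p38 and JNK in the nucleus, read 6.39 in ZAG skin and 7.62 in control skin (-1.23, 2.34-fold lower). It ranked 78th from the lowest among genes at or above the gauge, next to Arc, which was 76th. Of the other nuclear phosphatase genes among the members, only Dusp4 was lower, and by less than Dusp1. Dusp2, known from activated leukocytes, read 5.43 in ZAG skin and 5.26 in control skin (0.17). Dusp5, which is selective for ERK, read 5.62 in ZAG skin and 5.38 in control skin (0.23). Its difference, like that of Dusp2, was within the probe SD. Dusp4 read 4.02 in ZAG skin and 4.34 in control skin (-0.32, 1.25-fold lower). Dusp6, the cytoplasmic ERK phosphatase gene, averaged 4.89 in ZAG skin and 5.05 in control skin (-0.16) over 2 probes, of which one read 7.67 in ZAG skin and 8.02 in control skin (-0.36) and the other was below the gauge on both arrays. The group median was -0.16, or -0.32 with the brightest probe of each gene, and only Dusp1 of the 5 was past 1.5-fold.

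Sprouty proteins block signalling from receptor tyrosine kinases to ERK and are made in response to it. Spry4 read 3.99 in ZAG skin and 4.68 in control skin (-0.70, 1.62-fold lower). Spry2 read 4.73 in ZAG skin and 4.95 in control skin (-0.22), within the probe SD. Set beside Dusp4, Dusp5 and Dusp6, which are likewise made under ERK signalling, Spry4 was the only one past 1.5-fold, and their differences ran from -0.70 in Spry4 to 0.23 in Dusp5. The ERK feedback genes thus lay on both sides of 0, but Dusp5, the only gene of these above 0, was within the probe SD. Dusp6 was within it as the mean of 2 probes, but its probe above the gauge differed by -0.36, past that SD.

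The genes for mRNA turnover and growth arrest were lower together by small amounts. Zfp36 encodes tristetraprolin, which destroys the mRNAs of TNF and other cytokines, and read 6.10 in ZAG skin and 6.74 in control skin (-0.64, 1.56-fold lower). Zfp36l1, its relative, averaged 6.51 in ZAG skin and 6.82 in control skin (-0.30), with -0.19 and -0.41 on its 2 probes. Btg1 read 5.67 in ZAG skin and 5.85 in control skin (-0.18), and Btg2 read 6.07 in ZAG skin and 6.28 in control skin (-0.21). Both are antiproliferative genes that promote deadenylation, and both differences were within the probe SD. Zfp36l2, another gene of the tristetraprolin family and not a member, read 7.43 in ZAG skin and 8.26 in control skin (-0.83).

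The machinery upstream of the early genes was examined through lists of genes that were not members. Kinases and adaptors of the MAPK cascades differed little as a list (median -0.06), and of the 27 measured out of 33, 16 were lower and 11 higher. Of these, 2 (7.41%) were 1.5-fold lower and none 1.5-fold higher, against 4.72% and 2.51% of genes at or above the gauge. They ran from -0.73 in Ksr1, a scaffold gene of the ERK cascade, to 0.32 in Braf, the gene of a RAF kinase. The list of SRF, CREB, their partners and associated kinases was not divided into activators and repressors. It had a lower median of -0.22 over 16 genes of 20. Of these, 13 were lower (81.25%, against 47.5% of genes at or above the gauge). Elk3, an SRF partner gene, read 4.81 in ZAG skin and 5.85 in control skin (-1.04). It was the only gene of them past 1.5-fold, and was also past 2-fold. That single gene is 6.25% of the list, against 4.72% and 1.02% of genes at or above the gauge. Srf differed by -0.50, Creb1 by 0.06 and Mapkapk5, a p38-activated kinase gene, by 0.14.

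Lists of further negative regulators and AP-1 partners had medians between -0.14 and 0.09. The 7 further DUSP phosphatases had a median of 0.09 and ran from -0.75 in Dusp7, an ERK phosphatase gene, to 0.38 in Dusp14. Of the 5 further Sprouty and SPRED genes 4 were lower, with a median of -0.14, from -0.60 in Spred3 to 0.10 in Spred1. Among 14 other bZIP genes the median was -0.03 and 8 were lower, and those above the gauge ran from -0.27 in Jdp2 to 0.38 in Batf2. Batf3 read 3.34 in ZAG skin and 2.65 in control skin (0.69), the latter below the gauge. At 1.5-fold, Dusp7 (14.3% of its list) and Spred3 (20% of its list) were the lower genes of these 3 lists. Batf3 (7.14% of its list) was the higher. Over all genes, 3.64% were 1.5-fold lower and 2.21% 1.5-fold higher. No gene of the 3 lists was 2-fold lower or higher.

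A list of 35 measured early response genes outside the members had 22 lower and 13 higher, with a median of -0.09. Of these, 5 (14.3%) were past 1.5-fold in the lower direction, and 2 of these past 2-fold, against 4.72% and 1.02% of genes at or above the gauge. Plaur, the gene of the urokinase receptor of migrating leukocytes and keratinocytes, read 3.80 in ZAG skin and 5.70 in control skin (-1.90, 3.73-fold lower). Ccn1, the gene of an SRF- and YAP-induced matricellular protein, read 5.8 in ZAG skin and 7.17 in control skin (-1.37), whereas Ccn2, its relative, was 0.24 higher. The highest was Id2, the gene of an inhibitor of helix-loop-helix factors, at 0.39.

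**Figure D5:**
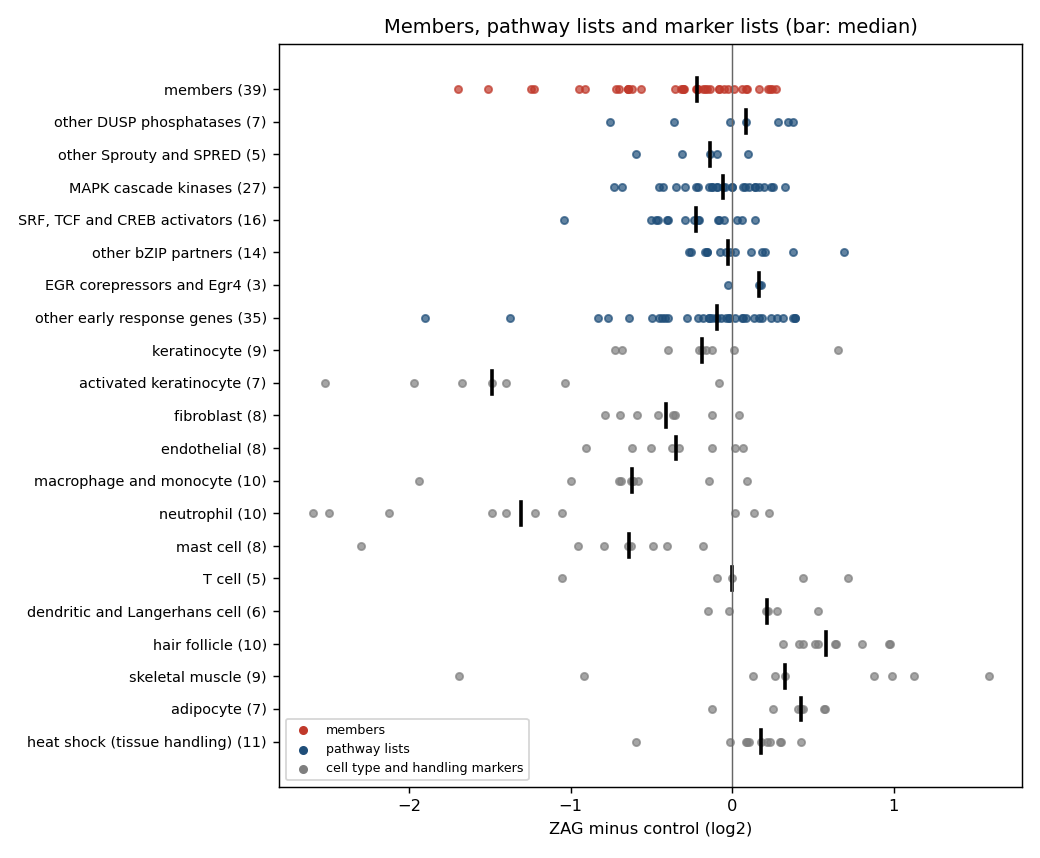
Log2 difference (ZAG minus control) of every measured gene of the members (red), 7 pathway lists (blue) and 13 marker lists (grey), 1 array per group, with the number measured in brackets and a black bar at the median. The members and the list labelled SRF, TCF and CREB activators have medians near -0.22. The neutrophil and activated keratinocyte lists are far lower. The heat shock list has a median of 0.18 with genes on both sides of 0.

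Cell types that express these genes differed between the arrays too, and fewer cells of a type cannot be told apart from less RNA per cell in whole skin. The 10 neutrophil markers had a median of -1.31, 7 were lower, and their summed linear signal was 525 in ZAG skin and 1449 in control skin. The neutrophil genes Ly6g, Ngp and Camp were below the gauge on both arrays, and Trem1 and Clec4e were below it in ZAG skin alone. Macrophage and monocyte markers had a median of -0.62, with 9 of 10 lower and summed signals of 1540 in ZAG skin and 2127 in control skin. Mast cell markers had a median of -0.64 with 8 of 8 lower, at summed signals of 870 in ZAG skin and 1382 in control skin, and Hdc was below the gauge in ZAG skin. Activated keratinocyte markers had a median of -1.49 with 7 of 7 lower, at 5099 in ZAG skin and 13297 in control skin. They share S100a8 and S100a9 with the neutrophil list, where these genes read highest on both arrays and so weigh most in its sum. The part of these cell types in the early gene differences was not tested.

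Stromal and resting epidermal markers differed less. Fibroblast markers had a median of -0.41 (7 of 8 lower, summed signals 8558 in ZAG skin and 10335 in control skin). Endothelial markers had a median of -0.35 (6 of 8 lower, 362 in ZAG skin and 512 in control skin), and keratinocyte markers a median of -0.18 (7 of 9 lower, 13758 in ZAG skin and 15790 in control skin). The 5 T cell markers had both directions, with Cd4 at -1.06 and Cd3g at 0.72, summed signals of 106 in ZAG skin and 96.1 in control skin, and Cd8a below the gauge on both arrays. Dendritic and Langerhans cell markers had a median of 0.22, with 4 of 6 higher and summed signals of 377 in ZAG skin and 312 in control skin. Hair follicle (median 0.58, 10 of 10 higher, 12473 in ZAG skin and 8569 in control skin) and adipocyte markers (median 0.42, 6 of 7 higher, 3224 in ZAG skin and 2265 in control skin) were mostly higher. Skeletal muscle markers had a median of 0.32 with 7 of 9 higher, at summed signals of 2225 in ZAG skin and 1611 in control skin, but ran from -1.69 in Myh2 to 1.59 in Myh4, both myosin genes. Genes induced in tissue by heat or handling were also measured: of 11 heat shock genes 9 were higher, with a median of 0.18 and summed signals of 2145 in ZAG skin and 1990 in control skin. The differences of 7 of the 11 were within the probe SD, and the single one past 1.5-fold was Bag3, a co-chaperone gene, at -0.59, lower like Fos and Dusp1. The part of tissue handling in the early gene differences was not tested.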

How the data were processed

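The authors deposited 1 column of log2 values per group, read as log2 from their range. The sources used here do not state how the arrays were corrected, summarised and normalized. Per the labels' protocols, biotin-labelled sense cDNA was hybridised, and the design text names Affymetrix arrays. Of 33793 probes, the 23521 with 1 gene symbol in the platform annotation were used, averaged per gene, and each difference is the ZAG value minus the control value. The 1 array per group limits the precision, and no test was made. The members and lists were chosen with earlier results of these data known. Named besides the members are the lowest and highest gene above the gauge of each pathway list; Srf, Creb1, Egr4, Batf3, Zfp36l2, Ccn1, Ccn2 and single markers were picked with their values in view. Older symbols were matched through RefSeq synonyms. Summed signals add 2 to the power of each log2 value. Alternatives were median centring, quantile normalization, loess against level (span 0.3), the brightest probe, filters on level, probes with several symbols, a 1.5-fold threshold and list means. Counting was tested on simulated data. The tools were pandas 2.3.3 and numpy 2.4.6 under Python 3.11.15, with statsmodels 0.14.6 for loess and matplotlib 3.10.9 for plots.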

Additional observations from a re-analysis of the deposited data

How the results depend on the processing

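Scaling hardly moved the members. Under median centring, quantile normalization and loess the largest shift of any member's log2 difference was -0.04, and Maff was the one member whose sign changed, under median centring. With the brightest probe per gene the largest shift was -0.20, in Dusp6, and no sign changed. The 4 members at least 2-fold lower became 12 at 1.5-fold, which admits more by construction. The 2-fold count was 5 when probes with several symbols were counted too. The 1.5-fold count was 13 in that setting and under median centring, quantile normalization and loess. At or above the median level of all genes the median of the Fos genes was -1.04, since Fosb is left out, and it was -0.84 when the probe that lists Fosl1 and a second gene was counted. With means in place of medians NR4A stood at -1.0 and IER at -0.35. No paired analysis was possible because each group has 1 array, and for the same reason none could be left out. Probe error (SD 0.24) limits 19 of the 39 differences.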
